A study of Thermothelomyces thermophilus ATCC 42464 with 24 samples.

Results

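The transcript levels of 2 genes of starch use in the thermophilic filamentous fungus Myceliophthora thermophila are described here: amyR (Mycth_2301920), which encodes a transcription factor, and gla1 (Mycth_72393), which encodes a glucoamylase. Both were taken by gene identifier from a read-count table of 9110 genes, and both passed the filter on low counts that left 8827 genes for testing. The table held 23 libraries in 12 groups. On 2% glucose at 45 °C, sampled at 24 h, the groups were the strains labelled Δcre-1, ΔlaeA, Δgrf-1, Δgrf-2 and Δgrf-3 and the wild-type (WT) strain, and on 2% Avicel, a microcrystalline cellulose, they were ΔlaeA and WT at 2 d, 4 d and 6 d. Each group had 2 libraries except Δgrf-2, which had 1. All mutants derive from the same wild-type strain and were made by putting a marker cassette in place of a coding region. laeA encodes a putative methyltransferase, cre-1 the carbon catabolite repressor, and grf-1, grf-2 and grf-3 were named growth regulatory factors.

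Starch is an α-linked polymer of glucose. A glucoamylase removes glucose units from the ends of its chains, and an α-glucosidase completes the breakdown of short oligosaccharides. In Aspergillus, AmyR is a zinc binuclear cluster activator that turns on amylase and glucoamylase genes, and CreA, the counterpart of CRE-1, represses genes for the use of other carbon sources while glucose is present. The Neurospora crassa counterpart of AmyR is COL-26. The labels name glucose or Avicel, and not starch, as the carbon source of all 12 groups.

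Library totals ran from 18114947 to 33937501 counts. Levels are given as counts per 1000000 (CPM) on totals scaled by the trimmed mean of M values. A gene was called when its Benjamini-Hochberg adjusted p in edgeR's quasi-likelihood test was below 0.05 and its log2 fold change was at least 1 in size. Whether groups overlapped is given as description only. Groups of 2 libraries can separate easily without a difference, and the share of all genes that did so was not counted. The deleted genes did not bear out the labels. laeA stood at a mean of 269 CPM in libraries labelled ΔlaeA on glucose, against 20.3 CPM in WT, and cre-1 at 2267 CPM in those labelled Δcre-1, against 588 CPM in WT. Both were called higher in the strain said to lack them, also laeA on each Avicel day. None of grf-1, grf-2 and grf-3 was called in its own strain. Every direction below therefore refers to libraries as labelled. Replicates of Δgrf-3 and of WT at 4 d on Avicel lay farthest apart, with 824 and 357 genes at least 2-fold apart. Those of WT on glucose, the reference for every mutant there, came close behind (313 genes). A lower share of a transcript cannot be told apart from fewer cells that make it. The labels do not name separate cultures, so p-values measure the spread between these libraries only.

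gla1 covered the wider range of the pair. Its counts ran from 162 in a Δgrf-3 library to 242551 in a Δcre-1 library. Group means ran from 12.5 ± 7.74 CPM in Δgrf-3 on glucose to 15544 ± 437 CPM in Δcre-1 on glucose (SD, n = 2 each). amyR moved over a much narrower span, with means from 67.4 ± 6.61 CPM in ΔlaeA on glucose to 479.9 ± 92.6 CPM in ΔlaeA at 4 d on Avicel (SD, n = 2 each).

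**Figure D1:**
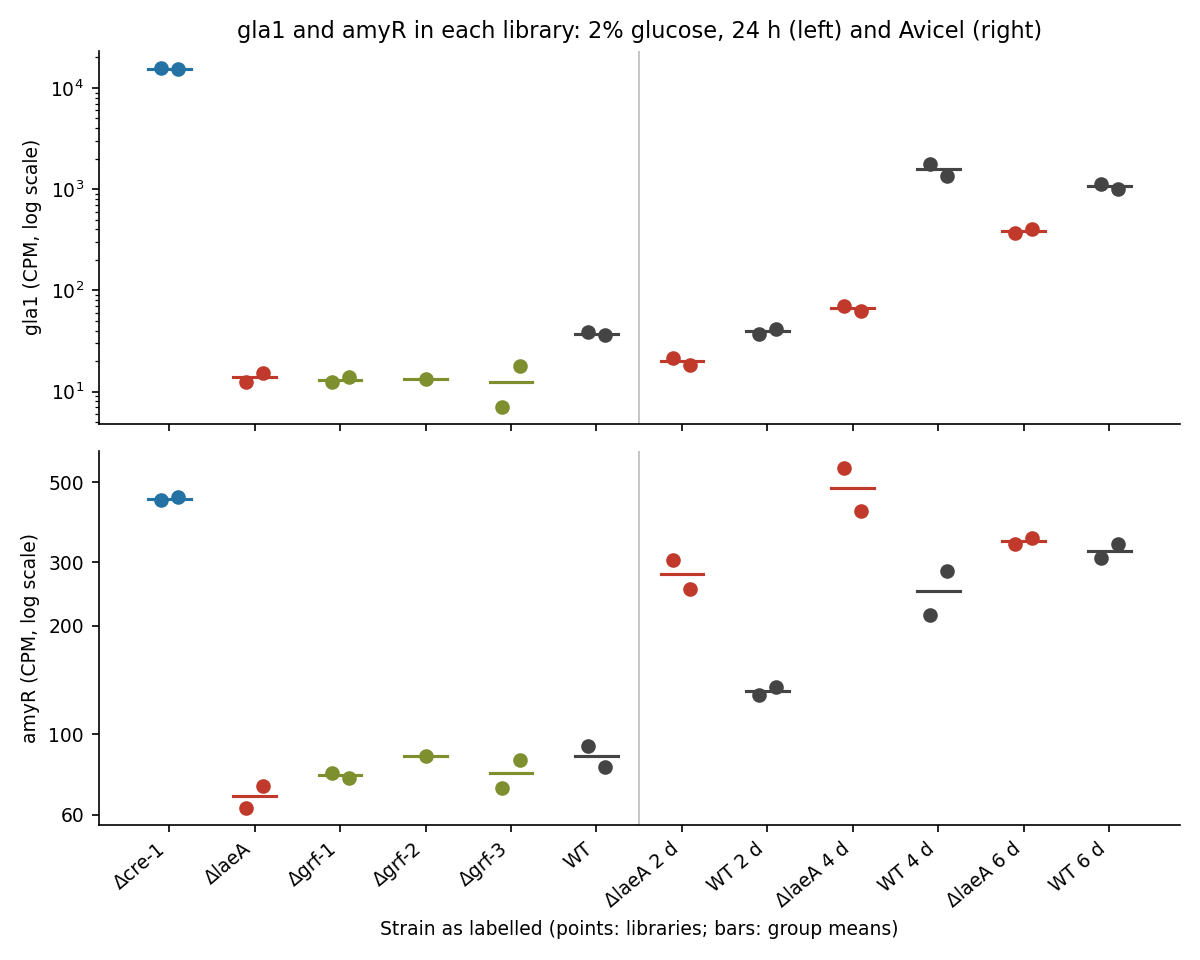
CPM (log scale) of gla1 (top) and amyR (bottom) in each library, with glucose cultures left of the grey line and Avicel cultures right of it; points are libraries and bars are group means. The Δcre-1 libraries stood at 15853 and 15235 CPM for gla1, above every other library, whereas for amyR a ΔlaeA library at 4 d on Avicel was higher still.

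The glucose cultures address how the pair is expressed when the preferred sugar is present and a regulator is labelled as deleted. In Δcre-1 both genes were higher than in WT, gla1 by far the more. gla1, the enzyme gene, stood at 15853 and 15235 CPM in Δcre-1 libraries, against 38.4 and 36.3 CPM in WT. It had the most counts of any gene in both Δcre-1 libraries, whereas in WT on glucose it ranked 4758 and 4827. The difference was a log2 fold change of 8.70 ± 0.39 (SE; edgeR adjusted p = 1.92e-10), the third from the top among the genes tested. In this comparison 15.4% of genes tested were called higher and 20.2% lower.

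amyR, the regulator gene, reached 445 and 454 CPM in the Δcre-1 libraries, against 93.2 and 81.0 CPM in WT. Its groups did not overlap, and the log2 fold change was 2.37 ± 0.17 (adjusted p = 1.54e-08). With library totals in place of scaled totals, the values were 8.10 for gla1 and 1.77 for amyR, and the median of all genes shifted by -0.60. Left-out libraries moved gla1 only between 8.66 and 8.74, and amyR between 2.27 and 2.47.

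The rise in Δcre-1 was also tested against the mean of the other 4 mutants, which share none of its libraries. gla1 was higher by 10.20 ± 0.29 on the log2 scale (adjusted p = 2.56e-13) and amyR by 2.54 ± 0.12 (adjusted p = 1.14e-10), where 10.5% of genes tested were called higher and 15.6% lower. Both comparisons use the same Δcre-1 libraries.

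Among ΔlaeA and the 3 Δgrf strains gla1 was lower than in WT, while no difference of amyR was called. gla1 stood at 12.6 and 15.2 CPM in ΔlaeA, 12.4 and 13.9 CPM in Δgrf-1, 13.2 CPM in the single Δgrf-2 library and 7.06 and 18.01 CPM in Δgrf-3, against 38.4 and 36.3 CPM in WT. All 7 libraries lay below both WT libraries, and these 4 groups overlapped each other. The log2 fold changes against WT were -1.43 ± 0.29 in ΔlaeA (adjusted p = 0.00182), -1.50 ± 0.29 in Δgrf-1 (adjusted p = 0.00116), -1.49 ± 0.37 in Δgrf-2 (adjusted p = 0.0235) and -1.57 ± 0.29 in Δgrf-3 (adjusted p = 0.000899). Of the genes tested, 6.28% were called higher and 5.6% lower in ΔlaeA, 5.02% and 9.99% in Δgrf-1, 1.68% and 3.4% in Δgrf-2, and 5.55% and 7.99% in Δgrf-3.

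These 4 comparisons of gla1 share the 2 WT libraries, so they are not independent of each other. The Δgrf-2 value rests on 1 library that was assumed to vary like the rest, and its call ended without WT replicate 1 (-1.45, adjusted p = 0.0503), with only the groups compared in the fit (adjusted p = 0.0906) and with only glucose libraries (adjusted p = 0.105). The call in Δgrf-3 ended with only the groups compared (adjusted p = 0.179), and its value was -2.40 without replicate 2 and -1.05 without replicate 1 of that strain.

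amyR stood at 62.7 and 72.1 CPM in ΔlaeA, 78.0 and 75.9 CPM in Δgrf-1, 87.1 CPM in the Δgrf-2 library and 70.996 and 85.2 CPM in Δgrf-3, against 93.2 and 81.0 CPM in WT. Only ΔlaeA and Δgrf-1 lay wholly below WT. The log2 fold change was -0.37 ± 0.16 in ΔlaeA (adjusted p = 0.1), and those of Δgrf-1, Δgrf-2 and Δgrf-3 were -0.18 ± 0.16, 0.00 ± 0.20 and -0.16 ± 0.16. None passed the test.

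**Figure D2:**
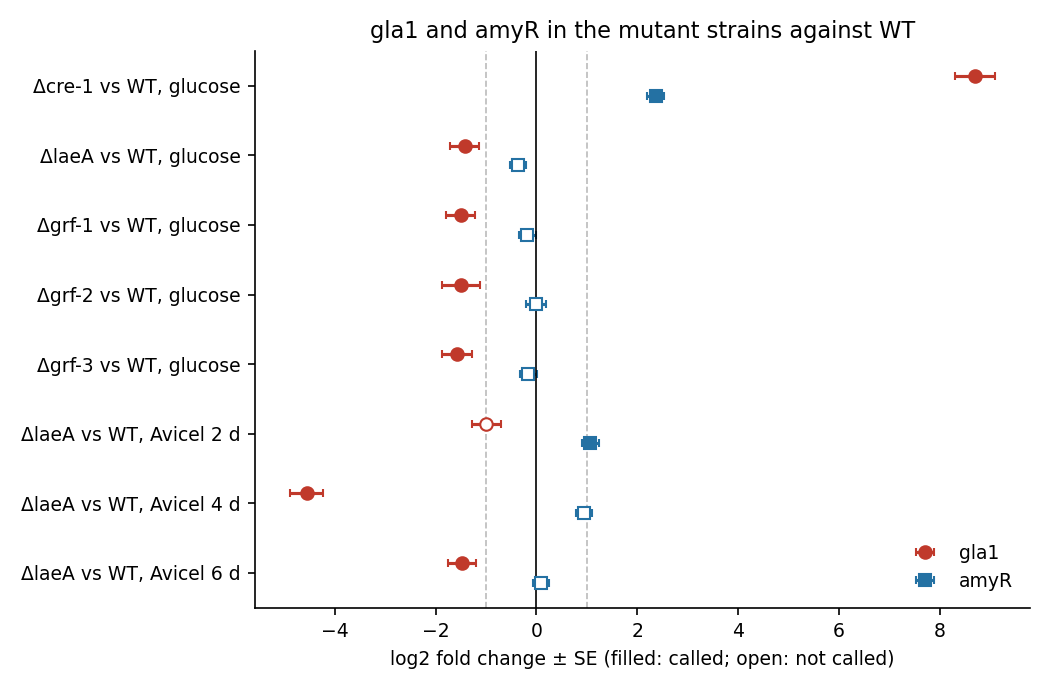
Log2 fold change with its standard error of gla1 (red circles) and amyR (blue squares) in mutant strains against WT; filled symbols were called, open symbols were not, and dashed lines mark the 2-fold limits. gla1 was 8.70 in Δcre-1 and between -4.56 and -0.996 in the other 7 comparisons, while amyR was filled only in Δcre-1 (2.37) and in ΔlaeA at 2 d on Avicel (1.07).

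On Avicel, gla1 in WT rose between 2 d and 4 d, while no single step of amyR was called. gla1 in WT had 38.4 and 36.3 CPM on glucose, 37.4 and 41.97 CPM at 2 d on Avicel, 1784 and 1346 CPM at 4 d, and 1126 and 1015 CPM at 6 d. Libraries at 2 d overlapped those on glucose, whereas both at 4 d were far above both at 2 d.

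From 2 d to 4 d in WT, gla1 rose by 5.30 ± 0.34 on the log2 scale (adjusted p = 7.2e-09), 50th from the top, with 9.18% of genes tested called higher and 9.86% lower. At 4 d it ranked 55 and 83 by counts in the WT libraries. The changes from glucose to 2 d (0.09 ± 0.28, adjusted p = 0.839) and from 4 d to 6 d (-0.55 ± 0.28, adjusted p = 0.123) were not called, with 9.99% and 12.4% of genes called higher in those steps and 5.64% and 7.52% lower.

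amyR in WT had 93.2 and 81.0 CPM on glucose, 129 and 136 CPM at 2 d, 214 and 284 CPM at 4 d and 308 and 336 CPM at 6 d. No pair of successive groups overlapped, which with 2 libraries each is weak by itself. Each step was below 2-fold: 0.60 ± 0.16 (adjusted p = 0.00854), 0.91 ± 0.16 (adjusted p = 0.000331) and 0.37 ± 0.16 (adjusted p = 0.073). None was therefore called, although without WT replicate 1 at 4 d the second step reached 1.11.

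**Figure D3:**
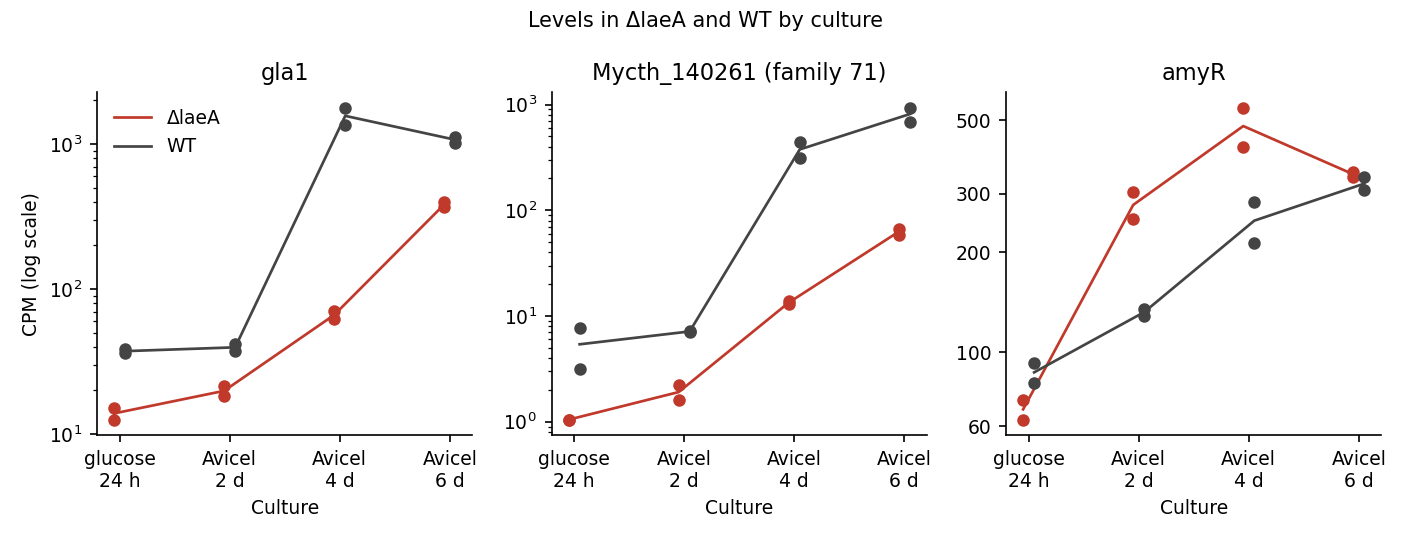
CPM (log scale) of gla1, the family 71 gene Mycth_140261 and amyR in libraries labelled ΔlaeA (red) and WT (grey) on glucose at 24 h and on Avicel at 2 d, 4 d and 6 d; points are libraries and lines join group means. gla1 and Mycth_140261 were lower in ΔlaeA on every Avicel day by their means, while amyR was higher at 2 d and 4 d.

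Libraries labelled ΔlaeA were compared with WT on each Avicel day, which asks how the levels of the pair differ between these labels. gla1 was called lower in ΔlaeA at 4 d and 6 d, and amyR was called higher at 2 d.

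gla1 stood at 21.5 and 18.3 CPM in ΔlaeA at 2 d, against 37.4 and 41.97 CPM in WT. At 4 d it had 70.9 and 61.9 CPM in ΔlaeA, against 1784 and 1346 CPM in WT, and at 6 d 368 and 400.0 CPM in ΔlaeA, against 1126 and 1015 CPM in WT. No day had overlapping groups, which by itself says little with 2 libraries each. The log2 fold change was -0.996 ± 0.29 at 2 d (adjusted p = 0.0127), just short of the 2-fold limit and not called, where 4.8% of genes tested were called higher and 10.7% lower. It was -4.56 ± 0.32 at 4 d (adjusted p = 3.59e-08), 69th from the bottom, with 9.17% of genes called higher and 9.95% lower, and -1.48 ± 0.28 at 6 d (adjusted p = 0.0015), with 2.41% called higher and 7.95% lower. Without WT replicate 1 or ΔlaeA replicate 1 of 2 d, the first value was -1.02 or -1.12 and was called.

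amyR had 303 and 253 CPM in ΔlaeA at 2 d, against 129 and 136 CPM in WT. At 4 d it had 545 and 414 CPM in ΔlaeA, against 214 and 284 CPM in WT, and at 6 d 338 and 349 CPM in ΔlaeA, against 308 and 336 CPM in WT. The groups overlapped on none of the days, which means little with 2 libraries each, and at 6 d they were close. The log2 fold change was 1.07 ± 0.16 at 2 d (adjusted p = 0.000113), and this call ended without ΔlaeA replicate 1 (0.93). At 4 d it was 0.95 ± 0.16 (adjusted p = 0.000279), below the 2-fold limit, and it was called at 1.16 without WT replicate 2 and at 1.11 without ΔlaeA replicate 2. At 6 d it was 0.09 ± 0.16 (adjusted p = 0.717).

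Within ΔlaeA, amyR was called higher at 2 d on Avicel than on glucose (2.04 ± 0.17, adjusted p = 5.52e-07), with 5.19% of genes tested called higher and 6.76% lower, and neither later step was called (0.79 and -0.48). For gla1 the change from glucose to 2 d was not called (0.52 ± 0.29, adjusted p = 0.19), and it was called higher at 4 d than at 2 d (1.74 ± 0.29, adjusted p = 0.000142) and at 6 d than at 4 d (2.53 ± 0.30, adjusted p = 4.41e-06). Of genes tested, 13.4% were called higher and 10.2% lower at 4 d, and 12.6% higher and 13% lower at 6 d.

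The difference between ΔlaeA and WT itself changed with the day. For gla1 the change from 2 d to 4 d was smaller in ΔlaeA than in WT on the log2 scale (-3.56 ± 0.41, adjusted p = 1.45e-05), and that from 4 d to 6 d was greater (3.08 ± 0.40, adjusted p = 2.95e-05). Of genes tested, 12.9% were called higher and 10.7% lower in the earlier step, and 11.1% higher and 12.8% lower in the later one. For amyR the step from glucose to 2 d was larger in ΔlaeA by 1.44 ± 0.23 (adjusted p = 0.00042), with 3.55% of genes called higher and 8.9% lower. Its step from 2 d to 4 d did not pass (-0.13 ± 0.23, adjusted p = 0.705), and that from 4 d to 6 d was -0.85 ± 0.23 (adjusted p = 0.00856), below the 2-fold limit.

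**Figure D4:**
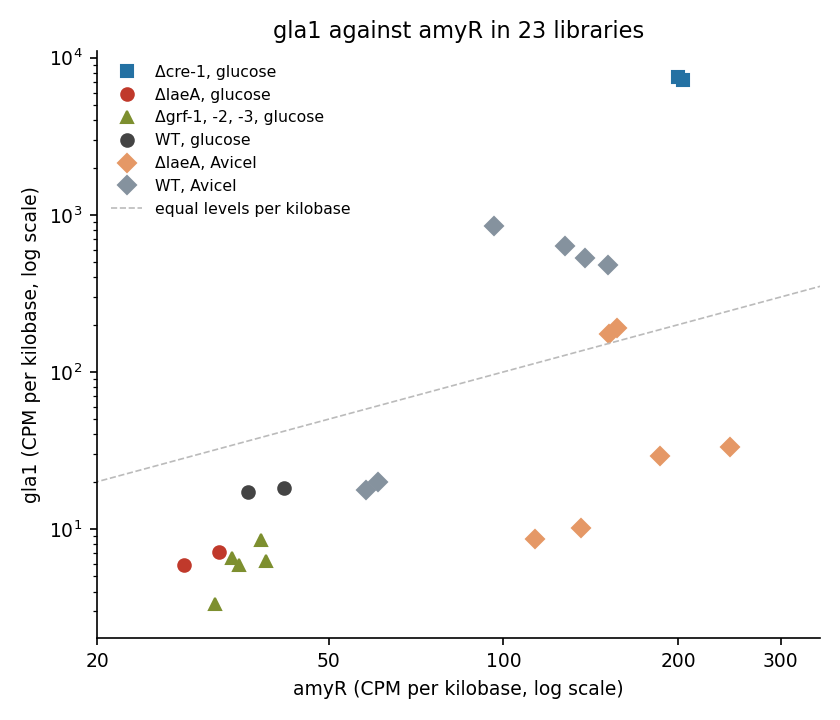
Level of gla1 against that of amyR in 23 libraries, both as CPM per kilobase on log axes; the dashed line marks equal levels. Libraries of Δcre-1 and of WT at 4 d and 6 d on Avicel lie above the line, ΔlaeA at 6 d lies just above it, and all the others lie below it.

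Per kilobase of gene length (2117 bases for gla1 and 2227 for amyR, recovered from a deposited column), the order of the pair differed by culture and by labelled strain. The ratio of gla1 to amyR was 35.3 and 37.5 in the Δcre-1 libraries, 4.98 and 8.77 in WT at 4 d, 3.18 and 3.84 in WT at 6 d and 1.15 and 1.20 in ΔlaeA at 6 d. It was below 1 elsewhere, with 0.433 and 0.471 in WT on glucose and 0.0746 and 0.0761 in ΔlaeA at 2 d.

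Across the 12 group means of log2(CPM + 1), gla1 and amyR had a Pearson correlation of 0.731 (Spearman 0.790), and 0.684 without Δcre-1. These points share strains and a fit, and the value is a description. Other genes were closer to each: among 7727 genes reaching 10 CPM in at least 1 group, amyR ranked 212 in likeness to gla1, and gla1 ranked 195 in likeness to amyR. The 5 genes most like gla1 were Mycth_2305590 (0.986), Mycth_2307840 (0.963), Mycth_2308988 (0.960), Mycth_102977 (0.958), annotated as a major facilitator transporter, and Mycth_2297374 (0.951). Those most like amyR were Mycth_92805 (0.949), Mycth_2296691 (0.942), Mycth_2301415 (0.940), Mycth_2135627 (0.936) and Mycth_2303570 (0.934). Without Δcre-1 the gla1 list kept 0 of its 5 genes and the amyR list 1.

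The other annotated α-glucan enzyme genes did not follow gla1 in Δcre-1. This list, taken from a shortened annotation and so partial, held 4 genes besides gla1: an α-glucosidase gene (Mycth_2087807), a family 31 glycoside hydrolase gene (Mycth_104674), a gene annotated to glycoside hydrolase family 13 and glycosyltransferase family 5 (Mycth_108416), and a family 71 gene (Mycth_140261), a family of α-1,3-glucanases. By these annotations the list is not confined to enzymes that break down starch. None of the 4 was called higher in Δcre-1 and 3 were called lower, with a median log2 fold change of -2.52. Over all genes tested, 15.4% were called higher and 20.2% lower, with a median of -0.10. The α-glucosidase gene had 17.3 and 18.5 CPM in Δcre-1, against 78.7 and 70.1 CPM in WT, and fell by 2.05 ± 0.13 on the log2 scale (adjusted p = 6.18e-09). Mycth_140261 had 6 and 2 counts in the Δcre-1 libraries, against 65 and 169 in WT, so that its lowest library was under the floor of 3 counts.

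Between ΔlaeA and WT at 4 d and 6 d on Avicel, Mycth_140261 was called lower, as gla1 was. It had 13.7 and 13.1 CPM in ΔlaeA at 4 d, against 443 and 309 CPM in WT, and 67.2 and 58.4 CPM in ΔlaeA at 6 d, against 935 and 690.0 CPM in WT. The log2 fold changes were -4.81 ± 0.34 at 4 d (adjusted p = 5.21e-08) and -3.69 ± 0.32 at 6 d (adjusted p = 1.13e-06). The interaction from 2 d to 4 d was -2.91 ± 0.47 (adjusted p = 0.000277). It was also called lower at 2 d (-1.90), where gla1 was not, and in WT it was called higher at 6 d than at 4 d (1.11), where gla1 stood at -0.55. Mycth_104674 went the other way at 4 d and was called higher in ΔlaeA (1.74 ± 0.59, adjusted p = 0.03). It had 35.8 and 36.3 CPM in ΔlaeA, against 3.08 and 18.2 CPM in WT, whose libraries lay far apart. At 2 d it was called lower, with 3.92 and 9.02 CPM in ΔlaeA, against 23.2 and 24.3 CPM in WT. The list thus had 1 gene called higher and 1 lower at 4 d, with a median of 0.04, against 9.17% and 9.95% of all genes tested. Neither the α-glucosidase gene nor Mycth_108416 was called on any day between these strains.

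Cellulose-degrading enzyme genes, annotated as such in the same shortened list, gave a frame for the Avicel cultures. In WT at 2 d, 13 of the 15 were called higher than on glucose and 0 lower, while neither gla1 nor amyR was called, and 9.99% of all genes tested were. In ΔlaeA against WT at 4 d, 6 were called higher and 2 lower (median 1.44), against 9.17% and 9.95% of all genes tested (median 0.01), the day on which gla1 was 4.56 lower on the log2 scale. At 2 d 0 were called higher and 10 lower (median -2.81), against 4.8% and 10.7% of all genes tested. At 6 d 7 were higher and 0 lower (median 1.58), against 2.41% and 7.95%. From 4 d to 6 d in WT, 0 were called higher and 12 lower (median -5.07), against 12.4% and 7.52% of all genes tested. In ΔlaeA over the same step, 1 was called higher and 12 lower (median -3.83), against 12.6% and 13%. The study ties the reduced cellulase production at 6 d to the Avicel having run out, which was not tested here.

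**Figure D5:**
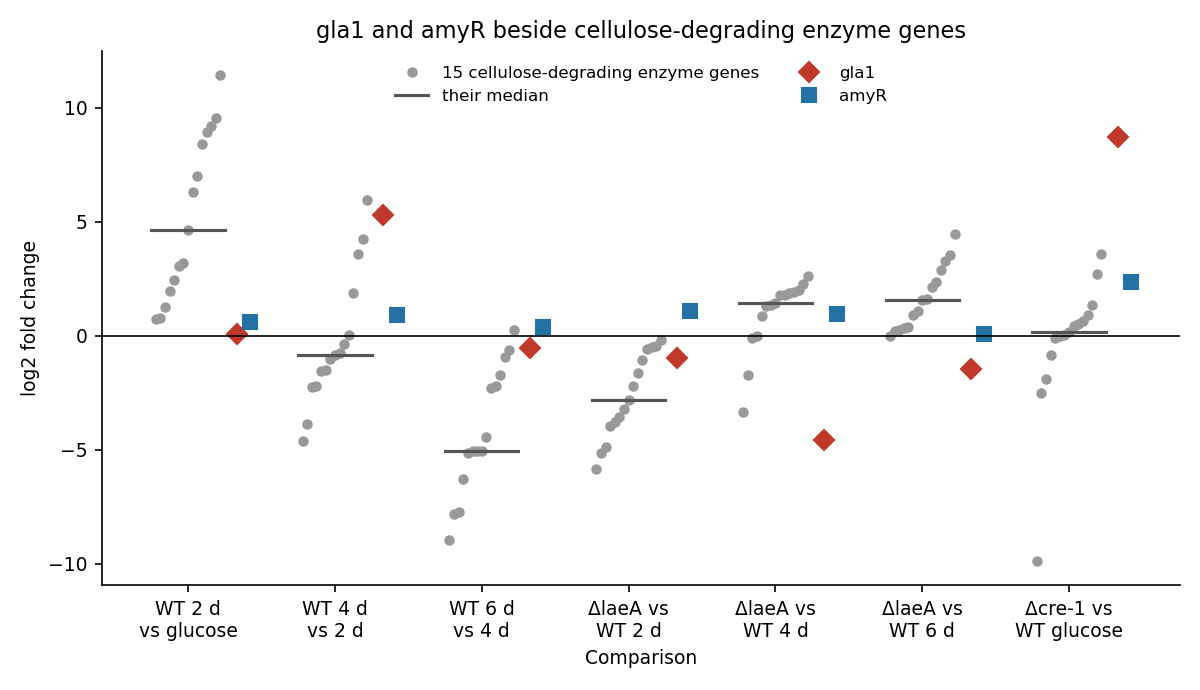
Log2 fold changes of 15 cellulose-degrading enzyme genes (grey points, with their median as a bar), gla1 (red diamonds) and amyR (blue squares) in 7 comparisons. At 4 d gla1 lay at -4.56, below all 15 genes, and in Δcre-1 at 8.70, above all of them.

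Another list held 6 regulator genes that the study named. Most are cellulase regulators it took from earlier reports, but it gave their gene identifiers where it reported their levels in these same samples. Mycth_90344 was named there among protein synthesis and secretion genes lower in ΔlaeA at 2 d on these samples. The study also counted amyR, left out of this list, as a cellulase repressor with increased expression in ΔlaeA at 2 d. In ΔlaeA at 4 d, 2 of the 6 were called higher, clr-2 by 2.56 and xlnR by 2.29 on the log2 scale. Only 1 was called lower (cre-1, -1.22), against 9.17% higher and 9.95% lower over all genes tested. The study had itself reported clr-2 and xlnR higher and cre-1 lower in ΔlaeA at 4 d from these samples. Those calls repeat its report and are no separate result. In Δcre-1 1 was higher and 1 lower, against 15.4% and 20.2%, and the one that was higher was cre-1 itself, the gene labelled as deleted. The orthologue of NCU10006 (Mycth_90344) stood at 7.36 CPM in Δcre-1, against 77.3 CPM in WT (log2 -3.39 ± 0.31), where amyR was higher. Of 15 annotated sugar transporter genes, 4 were called higher and 5 lower in Δcre-1 against WT, a median of -0.38, beside 15.4% and 20.2% of all genes tested. pck, fbp1 and phosphoglycerate kinase, of gluconeogenesis and glycolysis, were all 3 called higher in Δcre-1, ΔlaeA, Δgrf-1 and Δgrf-3 on glucose. In Δgrf-2, 2 of the 3 were. The study singled these genes out for being higher in ΔlaeA, and pck and fbp1 also in the other mutants, from these same samples. Their count therefore repeats that choice and is no separate result. The share of all genes tested that was called higher was 15.4% in Δcre-1, 6.28% in ΔlaeA, 5.02% in Δgrf-1, 5.55% in Δgrf-3 and 1.68% in Δgrf-2.

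The 2 nearest annotated genes on each side of gla1 and amyR were read as well. No neighbour of gla1 (Mycth_2311885, Mycth_2311886, Mycth_2311889 and Mycth_2316540) was called in Δcre-1 or between ΔlaeA and WT on any day. Of all genes tested, 15.4% were called higher and 20.2% lower in Δcre-1. Between ΔlaeA and WT the shares were 4.8% and 10.7% at 2 d, and 9.17% and 9.95% at 4 d. At 6 d they were 2.41% and 7.95%. Beside such shares, so few uncalled genes say little about the locus. Beside amyR, Mycth_106798, annotated as a phospholipase or carboxylesterase, had 56.1 and 54.4 CPM in Δcre-1, against 4.96 and 4.57 CPM in WT (log2 3.54 ± 0.28, adjusted p = 5.12e-08). On the other side, Mycth_2301919 had 8.71 and 8.20 CPM in ΔlaeA at 4 d, against 81.6 and 68.1 CPM in WT (log2 -3.14 ± 0.25, adjusted p = 1.09e-07), where amyR stood at 0.95. At 2 d, when amyR was called higher, Mycth_106798 (-1.38 ± 0.26) and Mycth_2301919 (-1.42 ± 0.24) were both called lower. Mycth_2090891, an endoglucanase-related gene that is also among the 15 cellulose-degrading genes, was called higher in Δcre-1 (2.72 ± 0.37). On glucose it was also called higher than WT in ΔlaeA (2.85), Δgrf-1 (1.63), Δgrf-2 (1.67) and Δgrf-3 (2.40). Against the other mutants its value in Δcre-1 was 0.58 and was not called. On Avicel it was called lower in ΔlaeA at 2 d (-3.58 ± 0.39) and 4 d (-3.34 ± 0.39) and higher at 6 d (1.58 ± 0.36). The remaining neighbour, Mycth_2301916, was not called in these comparisons. The strand setting of the counting is not given in the sources used here, so reads of overlapping or antisense genes cannot be told apart.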

How the data were processed

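RNA-seq of mycelium was analysed. The authors deposited read counts per gene, made by mapping to the species' genome and counting reads on unique exons; their processing notes name TopHat2 2.0.8b and HTSeq 0.5.4p2, and the build is not given in the sources used here. One deposited column, named for Δgrf-2 replicate 1, held RPKM that traced back to Δgrf-1 reads, so 1 column was left out. It served only for gene lengths (8865 of 8865 values gave whole bases within 0.01). Another 2 lines held no gene ID.

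Counts of 23 libraries were fitted in edgeR 4.0.16 (R 4.3.3; 1 coefficient per group, robust quasi-likelihood, 11 residual degrees of freedom), with TMM scaling and filterByExpr. The script was tested on simulated data. Comparisons numbered 18. Likeness used a pseudocount of 1 CPM. Gene names and order came from a RefSeq table (9087 of 9110 IDs matched). The genes, lists and tests were chosen with earlier results of these data known. Named genes are the pair, the lists, the 5 most alike to each and the 2 neighbours on each side. The planned promoter search was not run here, and no sequences were used.

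Alternatives were DESeq2 1.42.0, DESeq2 size factors, library totals, no count filter, at least 10 CPM in 2 libraries, a replicate block, smaller sets of libraries, adjusted p alone and each library left out. Figures used matplotlib 3.10.9 in Python 3.11.15.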

Additional observations from a re-analysis of the deposited data

Results flagged for a closer look

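The difference between libraries labelled ΔlaeA and WT had an adjusted p below 0.05 for its change between successive cultures in 4 cases of edgeR's interaction test, of which 3 were also at least 2-fold. For amyR it changed by 1.44 on the log2 scale from glucose to 2 d on Avicel (adjusted p = 0.00042) and by -0.85 from 4 d to 6 d (adjusted p = 0.00856), which is under 2-fold and was not called. For gla1 it changed by -3.56 from 2 d to 4 d (adjusted p = 1.45e-05) and by 3.08 from 4 d to 6 d (adjusted p = 2.95e-05). The remaining changes did not pass: amyR from 2 d to 4 d (-0.13, adjusted p = 0.705) and gla1 from glucose to 2 d (0.43, adjusted p = 0.486). Of all genes tested, 3.55% were called higher and 8.9% lower from glucose to 2 d. The shares were 12.9% and 10.7% from 2 d to 4 d, and 11.1% and 12.8% from 4 d to 6 d.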

How the results depend on the processing

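No called result for gla1 or amyR changed direction under the alternatives that were run; of those not called, amyR crossed 0 with a library left out in Δgrf-2 against WT (-0.10 to 0.10, and 0.01 to 0.03 under other count filters or with glucose libraries alone) and in the interaction from 2 d to 4 d (-0.39 to 0.09), and gla1 in WT from glucose to 2 d with library totals (-0.13). Adjusted p alone would also call amyR in WT from glucose to 2 d (0.60) and from 2 d to 4 d (0.91), in ΔlaeA against WT at 4 d (0.95), in ΔlaeA from 2 d to 4 d (0.79) and from 4 d to 6 d (-0.48) and in the interaction from 4 d to 6 d (-0.85), and gla1 in ΔlaeA against WT at 2 d (-0.996). The call of gla1 in Δgrf-2 ended when only the groups compared (-1.50, adjusted p = 0.0906) or only the glucose libraries (-1.48, adjusted p = 0.105) were fitted, and in Δgrf-3 when only the groups compared were fitted (-1.60, adjusted p = 0.179); fewer libraries then set the spread. With a library left out, amyR ranged from -1.07 to -0.64 for the interaction from 4 d to 6 d (called without replicate 2 of WT or of ΔlaeA at 4 d), from 0.70 to 1.11 for WT from 2 d to 4 d, from 0.93 to 1.20 for ΔlaeA against WT at 2 d and from 0.73 to 1.16 at 4 d. gla1 ranged from -1.53 to -1.45 for Δgrf-2, from -2.40 to -1.05 for Δgrf-3 and from -1.12 to -0.88 for ΔlaeA against WT at 2 d. Same-numbered replicates did not deviate together (correlations from -0.21 to 0.28 in 55 pairs of groups, 8 above 0.1), and a replicate block changed no call of the pair (gla1 in Δcre-1 8.70, amyR 2.37). Groups of 2 libraries limit every call.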
